A study of Mus musculus with 6 samples.

Results

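The cytosolic ribosomal protein genes were described here: genes whose symbol in the platform annotation starts with Rpl or Rps followed by a number, with the a, l and x forms, Rpsa, and Rplp0, Rplp1 and Rplp2. Symbols of pseudogenes with the ending -ps and the Rps6k kinases were left out, and a gene was represented by the probe set that names it alone and has the highest mean. This gave 74 genes of 18820, of which 47 belong to the large subunit (Rpl) and 27 to the small subunit (Rps). A further 5 (Rpl22l1, Rpl32, Rpl36al, Rpl37a and Rps16) lie only on probe sets that name several genes and were not analysed here. RefSeq lists 1 of the 74, Rps4l, as a transcribed pseudogene. The 74 genes are spread over 19 chromosomes.

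The study used C2C12, a mouse myoblast cell line that forms myotubes when serum is low. Both groups grew in 2% horse serum for differentiation, received a locked nucleic acid (LNA, a modified oligonucleotide) at 50 nM on day 6, and were collected on day 7, 24 h after transfection. In the silenced group (3 arrays) the LNA inhibits miR-382-5p, and in the control group (3 arrays) it is Negative Control A. Both groups carry replicate numbers 1 to 3, but the labels do not say that these are separate cultures, and the p-values cover only the spread among these 6 samples, which may be technical. Expression was measured on 1-colour Affymetrix whole-transcript arrays and is given as log2 level per array. Array medians lay between 4.21 and 4.27, and the lowest correlation between any pair of arrays was 0.985. The level of the mature microRNA was not measured, so silencing was not checked here.

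A ribosome is built from a large subunit, which joins amino acids, and a small subunit, which reads the mRNA. Each subunit holds ribosomal RNA and a single copy of most of its proteins, so cells make these proteins in matched amounts. Their mRNAs are abundant, and as a class they begin with a 5' terminal oligopyrimidine (TOP) tract, through which the kinase mTOR and the RNA-binding protein Larp1 control their translation. In muscle, ribosome content limits protein synthesis and growth. Many processed copies of ribosomal protein genes lie in the genome, and a single probe set can therefore read RNA of several loci.

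The inhibited microRNA is shown for its seed (bases 2 to 8, in capitals), which pairs with targets; the RefSeq sequence lies at chr12:109733781-109733802 on the plus strand of GRCm38.p6.
mmu-miR-382-5p: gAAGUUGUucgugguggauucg
Its sites in mRNAs were not searched.

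The labelled myotubes expressed their marker genes. All 9 myotube markers were above a log2 level of 3.87, the filter level up to which genes were not tested, with means from 8.17 (Mymx) to 12.25. Their summed level ran from 96.7 to 97.0 in control and from 97.2 to 98.6 in silenced arrays, so it was higher in all silenced arrays, and its part in the ribosomal protein differences was not tested. Markers of undifferentiated myoblasts (5 of 5, sums 33.3 to 33.7 and 32.9 to 33.7) and of fibroblasts (5 of 5, sums 41.9 to 44.5 and 41.7 to 44.1) were also above the filter and overlapped between groups. Of the adipocyte markers 1 of 4 was above it (sums 13.7 to 14.2 and 13.4 to 14.2), with Adipoq, Fabp4 and Plin1 below. Of osteoblast and chondrocyte markers 3 of 5 named ones were above it (sums 22.4 to 23.8 and 22.6 to 23.0), with Sp7 and Acan below. In bulk samples fewer cells of a type and less RNA per cell cannot be told apart.

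Ribosomal protein mRNAs read slightly lower in silenced than in control arrays for most genes, but no single gene was called. Of the 74 genes, 70 passed the filter on dim probe sets, which kept genes whose mean exceeded the 40th percentile (3.87 on the log2 scale). At an adjusted p under 0.05 in limma, 0 of these 70 were called, with and without the replicate number as a block, and the background over all 11292 tested genes was also 0%. The smallest adjusted p of a ribosomal protein gene in limma was 0.871, and 0.464 with the block. At an unadjusted p under 0.05 there was 1 of 70, Rpl26, against 4.8% of all tested genes. It was lower in silenced arrays (1 of 70, against 1.97%), and 0 of 70 were higher (2.83%). With the block the count was again 1 of 70, against 10.3%. A lower mean in silenced arrays was found for 53 of 70 genes (75.7%), against 47.3% of all tested genes. The median difference (silenced minus control) was -0.054 log2, or 1.04-fold lower, against 0.0089 log2 over all tested genes. The 95% confidence intervals of single genes reached between 0.17 and 0.27 log2 to either side of the estimate. A difference as small as the median was therefore not detectable for a single gene with 3 arrays a group.

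**Figure D1:**
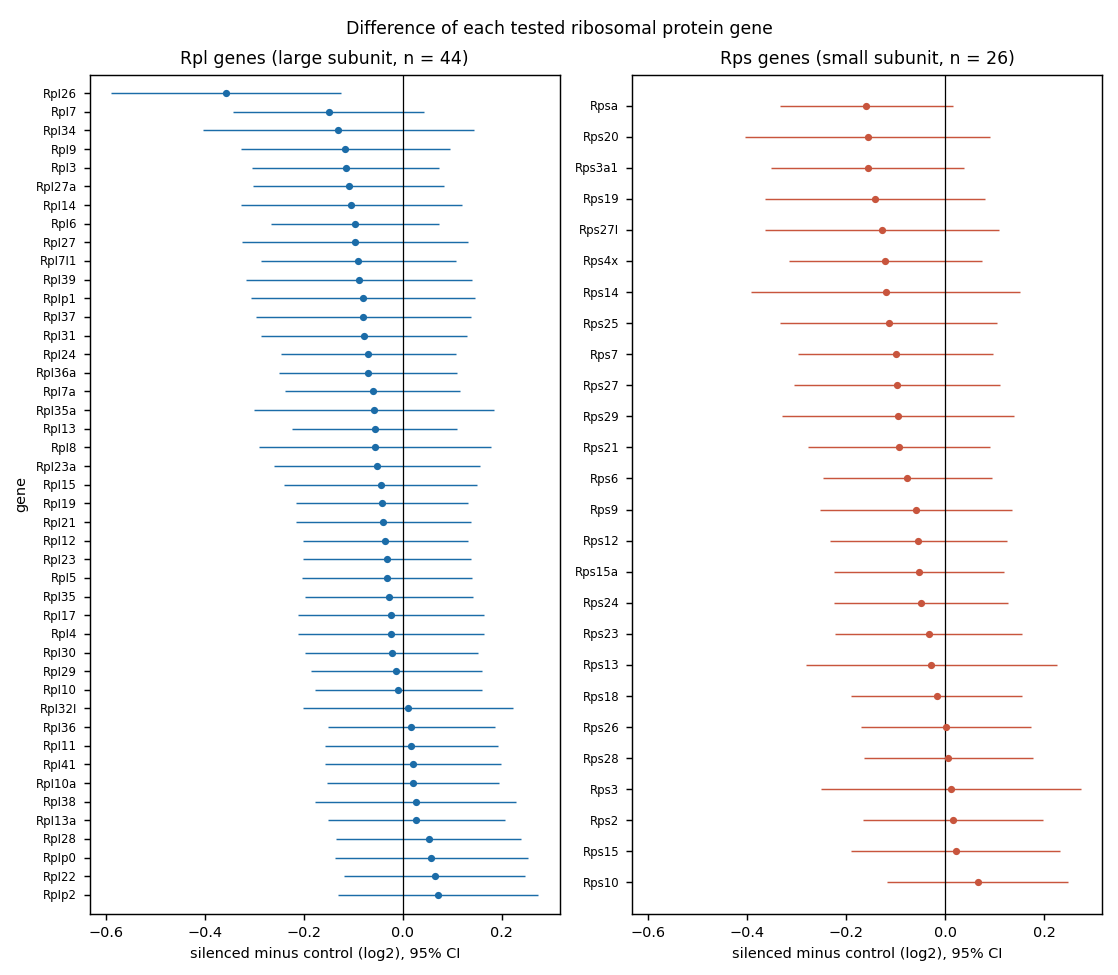
Difference of each tested ribosomal protein gene, silenced minus control (log2, x axis), with limma's 95% confidence interval, for 44 Rpl genes (left) and 26 Rps genes (right) sorted by difference. Most points lie left of 0, and Rpl26 is the 1 gene whose interval excludes 0.

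Large and small subunit genes showed the same direction. Of the Rpl genes 33 of 44 (75%) and of the Rps genes 20 of 26 (76.9%) had a lower mean in silenced arrays. The median difference was -0.043 log2 (1.03-fold lower) for Rpl and -0.068 log2 (1.05-fold lower) for Rps. Differences ran from -0.36 to 0.072 among Rpl and from -0.16 to 0.065 among Rps genes. Within replicate numbers 1, 2 and 3 the median difference was -0.020, -0.020 and -0.066 for Rpl and -0.0088, -0.069 and -0.11 for Rps. The Rpl median exceeded the Rps median by 0.025 log2 over all arrays, and by -0.011, 0.049 and 0.045 within the 3 numbers, an SD of 0.034. The gap between subunits was smaller than this SD, which is the spread of single replicate numbers and not the error of the gap. Within number 1 the gap changed sign. No p-value was computed for it, because the genes were chosen with earlier results of these data known.

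**Figure D2:**
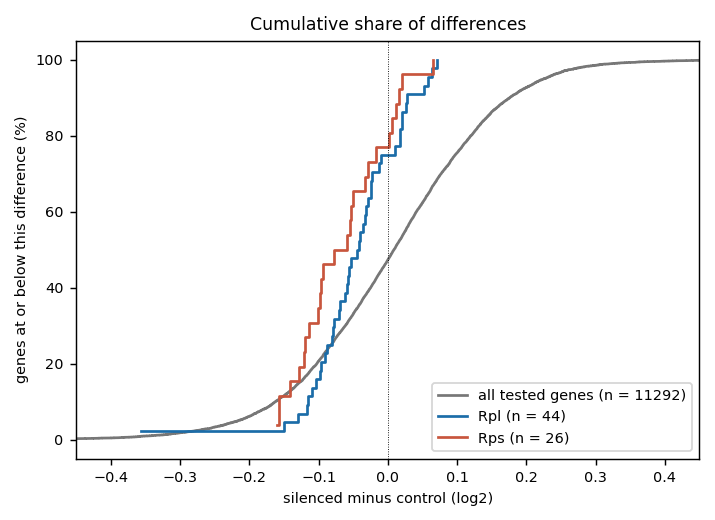
Cumulative share of genes (y axis, %) at or below a given difference, silenced minus control (x axis, log2), for 44 Rpl, 26 Rps and all 11292 tested genes. At a difference of 0 the curves stand at 75%, 76.9% and 47.3%.

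The arrays did not contribute evenly. Each gene was set against its own mean over the 6 arrays, and the median of these deviations was 0.0036, 0.0049 and 0.073 in control arrays 1, 2 and 3 and -0.011, -0.043 and -0.0098 in silenced arrays 1, 2 and 3. Every control median lay above every silenced median, but control arrays 1 and 2 were close to silenced arrays 1 and 3. Control array 3 stood highest: it held the highest value of 46 of the 70 genes (65.7%) and the lowest of 0, against 15.5% and 17.3% of all tested genes. Silenced array 2 held the lowest value of 28 genes (40%, against 16.8% of all tested genes). Without control array 3, 44 of 70 genes (62.9%) had a lower mean in silenced arrays, against 47.6% of all tested genes, and the median difference was -0.025. Without silenced array 2 the count was 53 of 70 and the median difference -0.032.

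**Figure D3:**
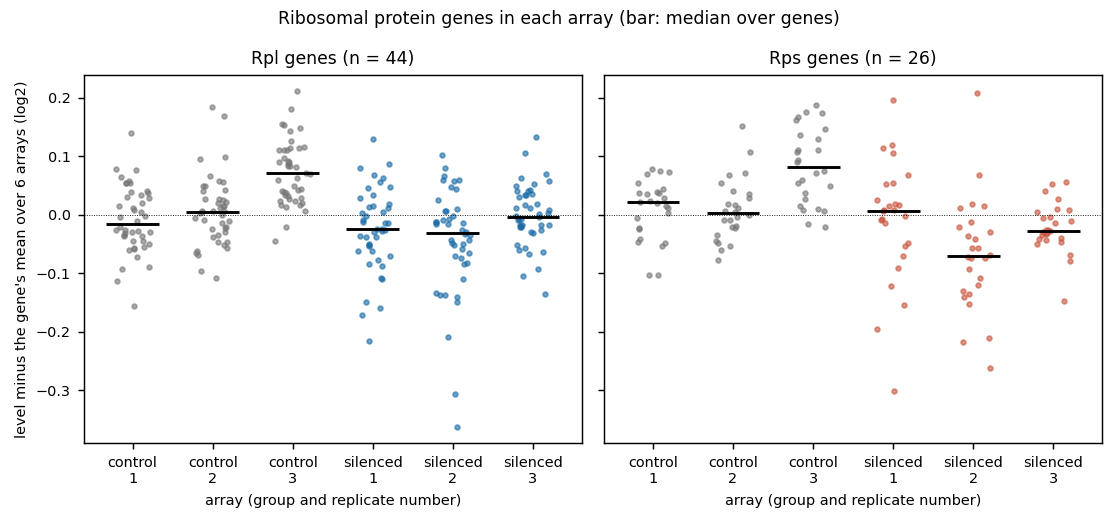
Level of each gene minus its own mean over the 6 arrays (log2, y axis) in each array (x axis), for 44 Rpl genes (left) and 26 Rps genes (right); bars are medians over genes. Control array 3 stands highest, with medians of 0.071 and 0.082, and silenced array 2 lowest, with -0.031 and -0.070.

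For the large subunit, the median deviation of Rpl genes was -0.016, 0.0051 and 0.071 in control arrays 1, 2 and 3 and -0.024, -0.031 and -0.0035 in silenced arrays 1, 2 and 3. For Rps genes the corresponding medians were 0.021, 0.0028 and 0.082 in control and 0.0073, -0.070 and -0.027 in silenced arrays. For both subunits 1 silenced array lay above 1 control array, so the groups overlapped. Rpl minus Rps was -0.037, 0.0022 and -0.011 in control arrays and -0.032, 0.039 and 0.024 in silenced arrays. Silenced array 1 resembled control array 1 in this balance, while silenced arrays 2 and 3 lay above the control arrays.

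The genes varied little between arrays and partly in step. The median SD within groups was 0.066 log2 for ribosomal protein genes (0.064 for Rpl, 0.073 for Rps), against 0.13 over all tested genes. Of a gene's variance over the 6 arrays, the median share between groups was 21.8%, against 14.2% over all tested genes. The median share between replicate numbers was 33.5%, against 49.6%. Deviations from the group means correlated at a mean of 0.23 over gene pairs, against 0.0050 over pairs of all tested genes. For pairs of mitochondrial ribosomal protein genes the mean was 0.10. These correlations are a description over 6 arrays that all genes share. Among the cytosolic genes the mean was 0.22 for pairs of Rpl genes, 0.27 for pairs of Rps genes and 0.22 between an Rpl and an Rps gene.

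In 10 of the 70 genes (14.3%) every silenced value lay below every control value, against 4.87% of all tested genes. The opposite arrangement was seen in 0 of 70, against 6.94%. Differences were downward in all 3 same-numbered pairs in 22 of 70 genes (31.4%), against 15.8% of all tested genes. They were upward in all 3 pairs in 3 of 70 (4.29%), against 19.7%. The 3 were Rpl22, Rpl36 and Rplp2, with differences of 0.064 ± 0.078, 0.017 ± 0.072 and 0.072 ± 0.086 (SE). Rpl22 and Rpl36 are named after their values were seen.

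Rpl26 sits beside the tunnel through which the new protein leaves the ribosome. It read 5.58, 5.62 and 5.65 in control arrays 1, 2 and 3 and 5.33, 5.08 and 5.37 in silenced arrays 1, 2 and 3. All silenced values lay at least 0.20 below the lowest control value, and silenced array 2 was lowest. The difference was -0.36 ± 0.10 (SE), 1.28-fold lower, with an unadjusted p of 0.0081 and an adjusted p of 0.871 in limma. Over the 14 settings in which it was tested its adjusted p in limma ranged from 0.459 to 1.00. This is 1 of 5 probe sets that name Rpl26, the other 4 naming other genes as well, and its mean level of 5.44 lies at percentile 51.6 of all genes. Of the 70 tested genes 58 lay above a level of 10, as did 6.11% of all tested genes. Of the 12 at or below it, 11 have 1 probe set that names them alone. Of these 12, 9 are also on probe sets that name several genes, which were left out. Among the 58 above it, 11 are on such probe sets.

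Rpsa, a small subunit protein that is also known as a laminin receptor, read 11.56, 11.52 and 11.62 in control and 11.37, 11.42 and 11.44 in silenced arrays. The groups did not overlap, and the lowest control value exceeded the highest silenced value by 0.086. The difference was -0.16 ± 0.07 (SE), with limma's unadjusted p of 0.068 and adjusted p of 0.871 (0.50 to 1.00 over 15 settings). All 5 of its probe sets were lower in silenced arrays, by differences of -0.19 to -0.12.

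Rps3a1, a protein of the small subunit near the mRNA exit, read 11.22, 11.29 and 11.40 in control and 11.17, 11.08 and 11.18 in silenced arrays. Its groups lay apart by 0.036, and its difference was -0.16 ± 0.08 (SE). Rpl7, a large subunit protein, read 11.35, 11.29 and 11.39 in control and 11.10, 11.22 and 11.27 in silenced arrays. Its groups lay apart by 0.023, and all 4 of its probe sets were lower, by -0.15 to -0.12. Silenced array 1 was its lowest array, whereas silenced array 2 was lowest for Rps3a1.

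Rps4x, the X-linked small subunit protein, read 11.03, 11.01 and 11.13 in control and 10.84, 10.98 and 10.99 in silenced arrays. Rpl3, which reaches toward the peptidyl transferase centre, read 11.39, 11.48 and 11.45 in control and 11.23, 11.37 and 11.38 in silenced arrays. In both genes silenced array 1 was clearly lowest and the other silenced arrays lay just below the control values. Their differences were -0.12 ± 0.08 and -0.12 ± 0.08 (SE), and -0.074 and -0.070 without silenced array 1. All 5 probe sets of Rps4x and all 6 of Rpl3 were lower.

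Rps6, the substrate of the S6 kinases downstream of mTOR, read 11.99, 11.94 and 12.02 in control and 11.89, 11.89 and 11.93 in silenced arrays. Rpl6 of the large subunit read 11.25, 11.23 and 11.29 in control and 11.20, 11.15 and 11.14 in silenced arrays. Both had small but separated values, with differences of -0.077 ± 0.073 and -0.097 ± 0.073 (SE). The remaining genes of the 10 were Rps27, a small subunit protein with a zinc finger, with a difference of -0.098 ± 0.088 (SE), and Rpl13, named after its values were seen, with -0.057 ± 0.071 (SE). The groups of Rps27 lay only 0.0031 apart, and its difference was -0.028 without control array 3. The adjusted p in limma was at least 0.871 for all 10. For the 9 of them other than Rpl13, for which the other settings were computed, it lay between 0.459 and 1.00.

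**Figure D4:**
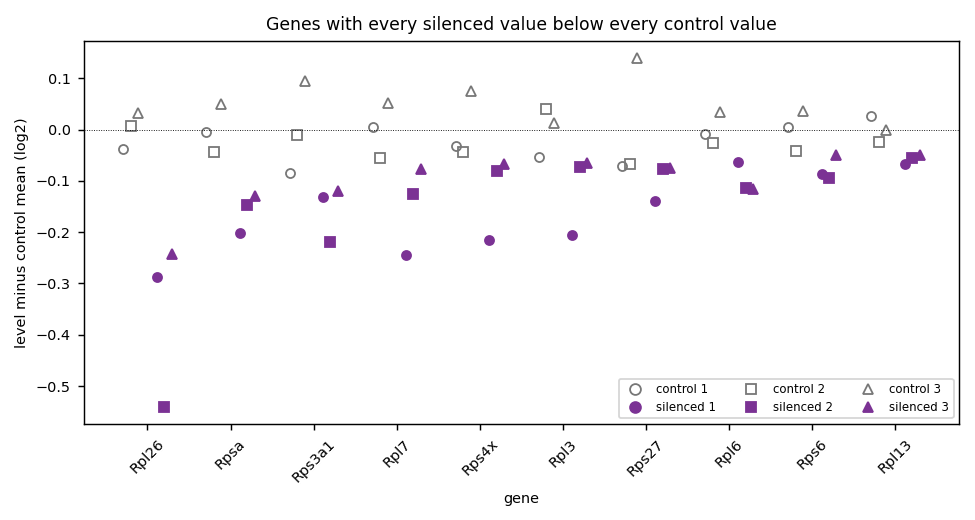
Level in each array minus the control mean of the gene (log2, y axis) for the 10 genes (x axis) in which every silenced value lies below every control value; open grey symbols are control and filled purple symbols silenced arrays, with the shape giving the replicate number. Rpl26 has the widest separation (0.20), and the groups of Rps27 and Rps6 are 0.0031 and 0.0082 apart.

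Other genes among those with the smallest p-values or the widest ranges had overlapping groups. Rps19, a small subunit protein whose gene is the one most often mutated in Diamond-Blackfan anaemia, read 7.98, 8.24 and 8.25 in control and 8.02, 8.01 and 8.02 in silenced arrays. Control array 1 thus lay below the silenced arrays, which were nearly equal. Its difference was -0.14 ± 0.09 (SE), and -0.23 without control array 1. Rps20 of the small subunit head read 10.44, 10.48 and 10.59 in control and 10.49, 10.16 and 10.38 in silenced arrays. Rpl34 read 7.94, 7.97 and 8.03 in control and 7.92, 7.61 and 8.02 in silenced arrays. In both genes silenced array 2 alone stood far below, and without it their differences were -0.066 and -0.010. Their ranges over 6 arrays (0.43 and 0.42) were the widest among the 70 tested genes after that of Rpl26 (0.57). Rps19 and Rpl34 were each read on 1 probe set, and 3 and 4 more that name several genes were left out. The other genes with the smallest p-values were Rpl27a with -0.11 ± 0.08 and Rpl9 with -0.12 ± 0.09 (SE). They stood at -0.069 without silenced array 3 and at -0.061 without control array 2, respectively.

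Genes were also grouped by their place in the ribosome and by a disease. Proteins around the exit tunnel (Rpl4, Rpl17, Rpl19, Rpl23a, Rpl26, Rpl31, Rpl35 and Rpl39) had a lower mean in silenced arrays in 8 of 8 genes, with a median of -0.047. Within replicate number 1 only 4 of these 8 were lower. A list for the small subunit head and beak, in which Rpsa was also counted, was lower in 7 of 10 tested genes, with a median of -0.075. There the median was 0.041 within number 1 and -0.12 and -0.11 within numbers 2 and 3. Genes mutated in Diamond-Blackfan anaemia were lower in 7 of 10 tested genes (median -0.047). Lower means were found in 75.7% of all 70 tested ribosomal protein genes, in 75% of Rpl genes and in 47.3% of all tested genes. The head and beak genes and the anaemia genes (70% each) were near the first of these shares. These groups are small, and no difference between them was tested.

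The stalk, which recruits elongation factors to the large subunit, showed both directions. Rplp0 read 12.29 ± 0.03 (SD, n = 3) in control and 12.34 ± 0.10 in silenced arrays, and Rplp1 12.40 ± 0.04 and 12.31 ± 0.15. Rplp2 read 4.53 ± 0.06 and 4.60 ± 0.10, on 1 dim probe set that names it alone. Another 1, which names several genes, was left out. Of the 4 stalk genes 2 (Rplp1 and Rpl12) had a lower mean and 2 a higher mean. For Rplp1 silenced array 1 was the low one: the direction turned without it (0.0068). With 1 array left out Rplp0 ran from 0.021 to 0.11 and Rplp2 from 0.025 to 0.12. The probe sets of Rplp0 disagreed, however: 2 of 4 were lower, with differences from -0.027 to 0.057.

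Rpl5 and Rpl11, which join the smallest ribosomal RNA and bind Mdm2 when ribosome assembly is disturbed, differed by -0.032 (95% confidence interval -0.20 to 0.14) and 0.017 (-0.16 to 0.19). At the mRNA entry, Rps2 differed by 0.016 (-0.17 to 0.20) and Rps3 by 0.011 (-0.25 to 0.27). Rps26, at the mRNA exit, differed by 0.0017 (-0.17 to 0.17), and Rpl35a by -0.058 (-0.30 to 0.18). Rpl35a was read on 1 probe set, and 11 more that name several genes were left out. Rps10, a head protein, had the largest difference upward among Rps genes, 0.065 ± 0.078 (SE), reading 11.24, 11.22 and 11.29 in control and 11.40, 11.27 and 11.28 in silenced arrays. Silenced array 1 alone lay above the control values. Without silenced array 1 the difference of Rps10 was 0.025 and that of Rpl5 -0.013. The direction of Rps2, Rps3, Rps26, Rpl11 and Rpl35a changed under other settings, Rpl35a reading 0.0012 without control array 3, as listed in the closing section.

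Paralogs are gene copies that can replace the usual protein in some tissues. Of 9 paralog forms listed, 7 had a probe set of their own and 3 passed the filter. Rpl3l, the paralog of Rpl3 that striated muscle uses, read 2.92, 2.67 and 3.06 in control and 2.62, 3.05 and 3.19 in silenced arrays. The groups overlapped fully, and the level lay at percentile 24.4 of all genes, below the filter. Rpl10l and Rpl39l, paralogs known from the testis, read 2.93 ± 0.23 and 2.55 ± 0.09 (SD, n = 3) in control and 2.92 ± 0.11 and 2.51 ± 0.04 in silenced arrays. Rps4l read 3.64 ± 0.09 and 3.61 ± 0.07. These 4 genes failed the filter and were not tested in the main analysis.

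Among the paralogs above the filter, Rps27l, a target of p53, read 8.86, 8.89 and 8.79 in control and 8.89, 8.56 and 8.70 in silenced arrays. The groups overlapped, because silenced array 1 lay at the control level. Its difference was -0.13 ± 0.10 (SE) and that of its partner Rps27 -0.098 ± 0.088 (SE). Rpl7l1 differed by -0.090 ± 0.084 and its partner Rpl7 by -0.15 ± 0.08 (SE). Rpl32l differed by 0.011 ± 0.091 (SE). The partners Rpl10 and Rpl39 of the dim paralogs differed by -0.0095 ± 0.0719 and -0.088 ± 0.097 (SE). Single arrays moved these values: Rps27l was -0.051 without silenced array 2, and without control array 3 Rps27 was -0.028, Rpl39 -0.020 and Rpl7l1 -0.058. The direction of Rpl32l and Rpl10 changed when single arrays were left out, to -0.053 without silenced array 3 and to 0.0038 without control array 3.

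Many of the genes are read by several probe sets, which name the same gene and are not independent of each other. In 45 of the 55 tested genes with several, all of them list the same RefSeq transcript first. The 70 tested genes have 380 probe sets naming them alone, from 1 to 41 each (Rpl21 has 41). In 41 of the 55 genes with several probe sets all of them were lower in silenced arrays, in 5 all were higher and in 9 both directions occurred. The median SD of differences among probe sets of a gene was 0.022 log2, against an SD of 0.069 among the genes. All 41 probe sets of Rpl21, named after its values were seen, were lower, by -0.084 to -0.012. In Rps2 7 of 18 were lower, with differences from -0.078 to 0.047. In most genes the probe sets thus differed less from each other than the genes did, but in 3, named after their values were seen, their SD was larger: Rps24 (0.12), Rpl13a (0.12) and Rplp1 (0.10).

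Of the 379 probe sets of these genes above the filter level, 84.4% were lower in silenced arrays, against 49.2% of all 12948 such probe sets that name 1 gene. Probe sets that name a ribosomal protein gene together with another gene were lower in 60 of 63 cases above the filter level (95.2%), with a median of -0.10. Over all 976 probe sets that name several genes 61.0% were lower, with a median of -0.033. These were left out of the gene values.

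The differences varied with the level of the probe set. Above a log2 level of 12, where 19 ribosomal protein genes lay, 10 were lower and the median difference was -0.0095. Between 11 and 12, 24 of 26 were lower with a median of -0.078. Between 10 and 11, 10 of 13 were lower with a median of -0.070, and below 10, 9 of 12 with a median of -0.074. Tested genes outside the list were lower in 38.1%, 40.7%, 48.7% and 47.2% of cases in the same bands. In the brightest band the genes of the list were thus nearly as often higher as lower. Whether the arrays' response at high signal has a part in this was not tested. Levels, and the percentiles given for some genes, are signals of probe sets. They were not read as an order of mRNA abundance between genes, since probe sets bind with different strength.

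**Figure D5:**
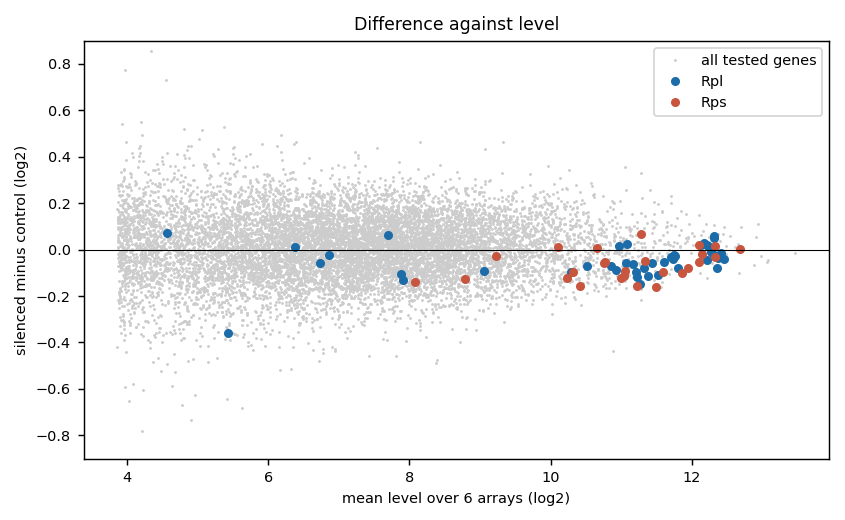
Difference, silenced minus control (log2, y axis), against the mean level over 6 arrays (log2, x axis) for 44 Rpl genes (blue), 26 Rps genes (red) and all 11292 tested genes (grey). Ribosomal protein genes between levels of 11 and 12 lie mostly below 0 (24 of 26), and those above 12 lie on both sides of it (10 of 19 below).

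Other genes of ribosome and translation were read from short lists. Fau, whose product is split into ubiquitin-like protein and a small subunit protein, differed by -0.055 ± 0.074 (SE). Of 17 translation factor and other genes whose mRNAs are known to carry a TOP tract, 10 were lower, with a median of -0.010. Among all tested genes 47.3% were lower. In limma 0 of 17 had an unadjusted p under 0.05, against 4.8% of all tested genes. With the replicate block it was 1 of 17 (Eif3e, named after its values were seen), against 10.3%. Chaperones and assembly partners of ribosomal proteins were lower in 6 of 8 genes (median -0.034), with 0 under 0.05. Mitochondrial ribosomal protein genes, encoded apart from the cytosolic ones, were lower in 54 of 74 tested genes with a median of -0.076. Their median was 0.043 within replicate number 1, whereas that of the cytosolic genes was -0.013.

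Regulators of ribosomal protein synthesis were lower in 6 and higher in 9 of 15 tested genes, against 47.3% lower among all tested genes. In limma 3 of 15 had an unadjusted p under 0.05, against 4.8% of all tested genes. With the replicate block there were 4, against 10.3% of all tested genes. The added one was Rheb, an activator of mTOR complex 1 named after its values were seen, with a difference of -0.24. Rptor, the subunit that defines mTOR complex 1, read 8.54, 8.50 and 8.61 in control and 8.88, 8.77 and 8.93 in silenced arrays, a difference of 0.31 ± 0.08 (SE). Mtor itself read 7.82, 7.83 and 7.78 in control and 8.07, 7.98 and 8.06 in silenced arrays, a difference of 0.22 ± 0.07 (SE). Tsc2, an inhibitor of the pathway, differed by 0.24 ± 0.10 (SE). The groups of Rptor, Mtor and Tsc2 did not overlap, those of Tsc2 by only a narrow gap. Every silenced value lay above every control value in 6.94% of all tested genes. Limma's adjusted p was 0.871 for Rptor, Mtor and Tsc2 alike (0.459 to 1.00 over 15 settings). The unadjusted p was under 0.05 in 15 of 15 settings for Rptor, 12 of 15 for Mtor and 8 of 15 for Tsc2.

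The promoters of the genes were compared over windows from 250 bases before to 50 after the RefSeq start (GRCm38.p6), which 57 of the 70 tested genes have. The letters CCGGAAG, the core that ETS factors bind, occurred on either strand in 25 of 57 genes (43.9%), against 12.9% of 17492 protein-coding genes. GCCATNTT, the core of YY1 sites, occurred in 12 (21.1%, against 7.46%). The GC box GGGCGGG was present in 27 (47.4%, against 36.9%), and the TATA box TATAAA in 7 (12.3%, against 14.8%). A run of at least 8 pyrimidines on the gene strand between 10 bases before and 50 after the start was found in 41 (71.9%, against 24.2%). Rpl and Rps genes had ETS cores in 41.2% and 47.8% and pyrimidine runs in 76.5% and 65.2% of genes. The matches are letters in a window and do not show binding.

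Of the 10 genes whose groups did not overlap, which were picked by their values here, 8 have a window and 5 hold the ETS core. Among all 57 tested ribosomal protein genes with a window, 25 (43.9%) hold it. Whether the core goes with a lower reading was not tested. The 30 bases around the core nearest to the start are printed for the 5 genes that hold it among these 10. They show how the motif sits, with the core in capitals (CTTCCGG where it lies on the opposite strand).
Rpl26: aacttacagaaCCGGAAGtcgcgtgtagtt
Rpl6: ttgcttatagaCCGGAAGccgctgccttag
Rps3a1: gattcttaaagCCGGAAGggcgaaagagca
Rps6: ttaatctacgcCCGGAAGtaacgcccctct
Rpsa: cgccccagctaCTTCCGGcctggggtctgt
The windows lie at chr11:68901559-68901588 (plus strand) for Rpl26, chr5:121204502-121204531 (plus) for Rpl6, chr3:86142659-86142688 (minus) for Rps3a1, chr4:86857440-86857469 (minus) for Rps6 and chr9:120127567-120127596 (plus) for Rpsa. Counting the first base of the gene as 0, the core began at 4 in Rpl26, 12 in Rpl6, -9 in Rps3a1, -91 in Rps6 and -188 in Rpsa.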

How the data were processed

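Total RNA (100 ng per sample, RNA integrity number above 8.0, per the labels' protocols) was measured on 6 arrays. The deposited values are log2 levels made by the authors with RMA, according to the submitters' processing notes. No RMA version is given in the sources used here. This method corrects background, gives the arrays one distribution and shrinks differences of dim genes. The number of arrays limits the precision.

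Of 35556 probe sets 21218 name 1 gene in the platform annotation and 1881 several. All 74 ribosomal protein genes matched RefSeq (GRCm38.p6) by Entrez identifier. Genes above the 40th percentile of mean level (11292) were fitted in R 4.3.3 with the limma 3.58.1 functions lmFit and eBayes (2-sided, no covariate, Benjamini-Hochberg over all tested genes), and the fit was tested on simulated data. Array columns of other samples numbered 0.

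Same-numbered arrays deviated together over all tested genes (correlations 0.55, 0.35 and 0.42), which meets the rule for a pairing that comes from the data and not from a label. The reported errors and p-values are from the fit without the pairing, and the fit with the replicate number as a block is an alternative. Over the ribosomal protein genes these correlations were -0.21, -0.28 and 0.0056.

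The genes, lists and tests were chosen with earlier results of these data known. The text names the 12 genes with the lowest p, the 2 with the largest difference in each direction, the paralogs and partners, the 3 with the widest range, a panel by role, and up to 4 genes per companion list with p under 0.05; others are marked as named after their values were seen. Companion lists were summarized by counts and medians. Alternatives covered the filter, normalization, probe sets per gene, array weights, the replicate number as a block and left-out arrays.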

Additional observations from a re-analysis of the deposited data

How the results depend on the processing

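No ribosomal protein gene passed the adjusted threshold under any of the 14 alternatives. The fit with a replicate block gave 0 adjusted and 1 at an unadjusted p under 0.05, and the block changed no adjusted call. That unadjusted count, 1 as reported, was 2 with array weights (Rpl26 and Rps3a1), after repeated quantile normalization (Rpl26 and Rpsa), without both arrays numbered 1 and without control replicate 1 (Rpl26 and Rps19 in both), and ranged from 1 to 2 when 1 array was left out. The stricter filter dropped Rpl26 and left 1, Rpsa. The count of genes with a lower mean ranged from 44 (without control replicate 3) to 60 (without control replicate 2) and the median difference from -0.063 to -0.025 when 1 array was left out. The median without control replicate 3 (-0.025) or silenced replicate 2 (-0.032) was well short of the reported -0.054, and the cause was not tested. The Rpl minus Rps median stayed above 0 under all 14 alternatives (0.0079 to 0.042).

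The difference changed sign in 8 named genes. Rpl11 was -0.0082 and Rps2 -0.0011 with the mean over all probe sets of a gene, Rps26 was -0.0032 with array weights, Rps3 was -0.0035 after repeated quantile normalization and Rplp1 was 0.025 without both arrays numbered 1. Without those arrays Rpl35a was -0.16, Rps2 0.065 and Rps3 0.13. With 1 array left out the differences ran from -0.026 to 0.0038 for Rpl10, -0.010 to 0.043 for Rpl11, -0.053 to 0.068 for Rpl32l, -0.15 to 0.0012 for Rpl35a, -0.13 to 0.0068 for Rplp1, -0.019 to 0.054 for Rps2, -0.024 to 0.016 for Rps26 and -0.090 to 0.11 for Rps3. The cause was not tested.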
